A study of Homo sapiens with 6 samples.

Results

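Collagen and integrin genes were followed in A2780, a human ovarian cancer cell line, after treatment with recombinant human CRMP2 (r-CRMP2). CRMP2 is a microtubule-associated protein that the study traced to the medium of cancer associated fibroblasts. All cells were labelled wild type and were grown in DMEM with serum. The 3 r-CRMP2 libraries came from cells given 40 ng/ml r-CRMP2 in the medium for 48 h, and the 3 untreated libraries from cells without it at the same 48 h. The labels do not say whether replicates were separate cultures, so the p-values measure the spread between these libraries, which may be technical. The members were the protein-coding genes whose symbol is a collagen α chain (COL, a type number, A and a chain number) or an integrin α or β subunit (ITGA or ITGB). There were 70 of them among the 44591 genes counted: 44 collagen genes and 26 integrin genes, the latter being 18 α and 8 β subunits.

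Most collagens are secreted triple helices of 3 α chains and form much of the extracellular matrix, and a few are transmembrane proteins. Fibrillar collagens build fibrils, type IV collagens build the sheet of the basement membrane, and type VI collagen forms beaded filaments beside cells. Integrins are heterodimers of an α and a β subunit that span the cell membrane. They bind matrix proteins outside and couple them to the actin cytoskeleton inside, and the α subunit largely sets the ligand. In ovarian cancer they are known for attaching tumor cells to the matrix of the peritoneal lining.

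Library totals were between 21888530 and 25711353 counts. Across genes, which are not independent replicates, log2 values correlated at 0.989 to 0.993 for libraries of the same group and at 0.955 to 0.969 for libraries of different groups. The third r-CRMP2 library stood apart at low counts: 22438 genes had a count in it, against 25152 to 26302 in the other 5 libraries. Of the 22 members too low to be tested, 13 were at 0 there, against 1 or 2 in each other library. Scaling mattered for every gene. Over the 16222 genes tested, log2 fold changes had a median of -0.03 after TMM scaling, which was used here, and of -0.34 when libraries were scaled by their size alone. Fold changes are therefore read against these medians, and each called direction that turned with library size is named beside its gene. Levels are given as CPM, counts rescaled to one library total after TMM. Of the 8 epithelial markers listed, 6 were tested, with 2 higher and 1 lower after TMM and 0 and 2 with library size alone, and CDH1 and CLDN3 were under 1 CPM in every library. Of the 6 ovarian carcinoma markers, 4 were tested (PAX8, MUC16, MSLN and FOLR1), with 1 higher and 1 lower after TMM and 1 and 2 with library size alone, and WT1 and SOX17 were under 1 CPM in every library. Over all genes tested, 28.2% were higher and 30.1% lower after TMM. With library size alone, 2171 of the 16222 genes were higher and 8449 lower.

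The filter on low counts left 48 members, 30 collagen genes and 18 integrin genes. The other 14 collagen genes reached at most 0.708 CPM and the other 8 integrin genes at most 0.621 CPM in any library. Levels per gene length, as deposited TPM (counts divided by gene length and rescaled within a library), spanned several orders of magnitude among the members. In all, 15 of 44 collagen genes and 7 of 26 integrin genes had a group mean of at least 10 TPM, in untreated and in r-CRMP2 libraries alike. COL5A1 had the highest mean TPM of the collagen genes in both groups, followed by COL5A2. In untreated cells COL7A1 (173 ± 22.9 TPM, SD, n = 3) and COL1A1 (172 ± 16.4 TPM, SD, n = 3) came next and did not differ beyond their spread. With r-CRMP2, COL1A1 (104 ± 8.23 TPM, SD, n = 3) came after COL4A2 (132 ± 5.45 TPM, SD, n = 3). Among the integrin genes ITGB1 led in untreated cells with 357 ± 22.9 TPM (SD, n = 3), ahead of ITGA5 with 253 ± 37.8 TPM (SD, n = 3). With r-CRMP2 their TPM ranges overlapped, with 491 ± 13.2 TPM (SD, n = 3) for ITGB1 and 530 ± 40.5 TPM (SD, n = 3) for ITGA5.

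**Figure D1:**
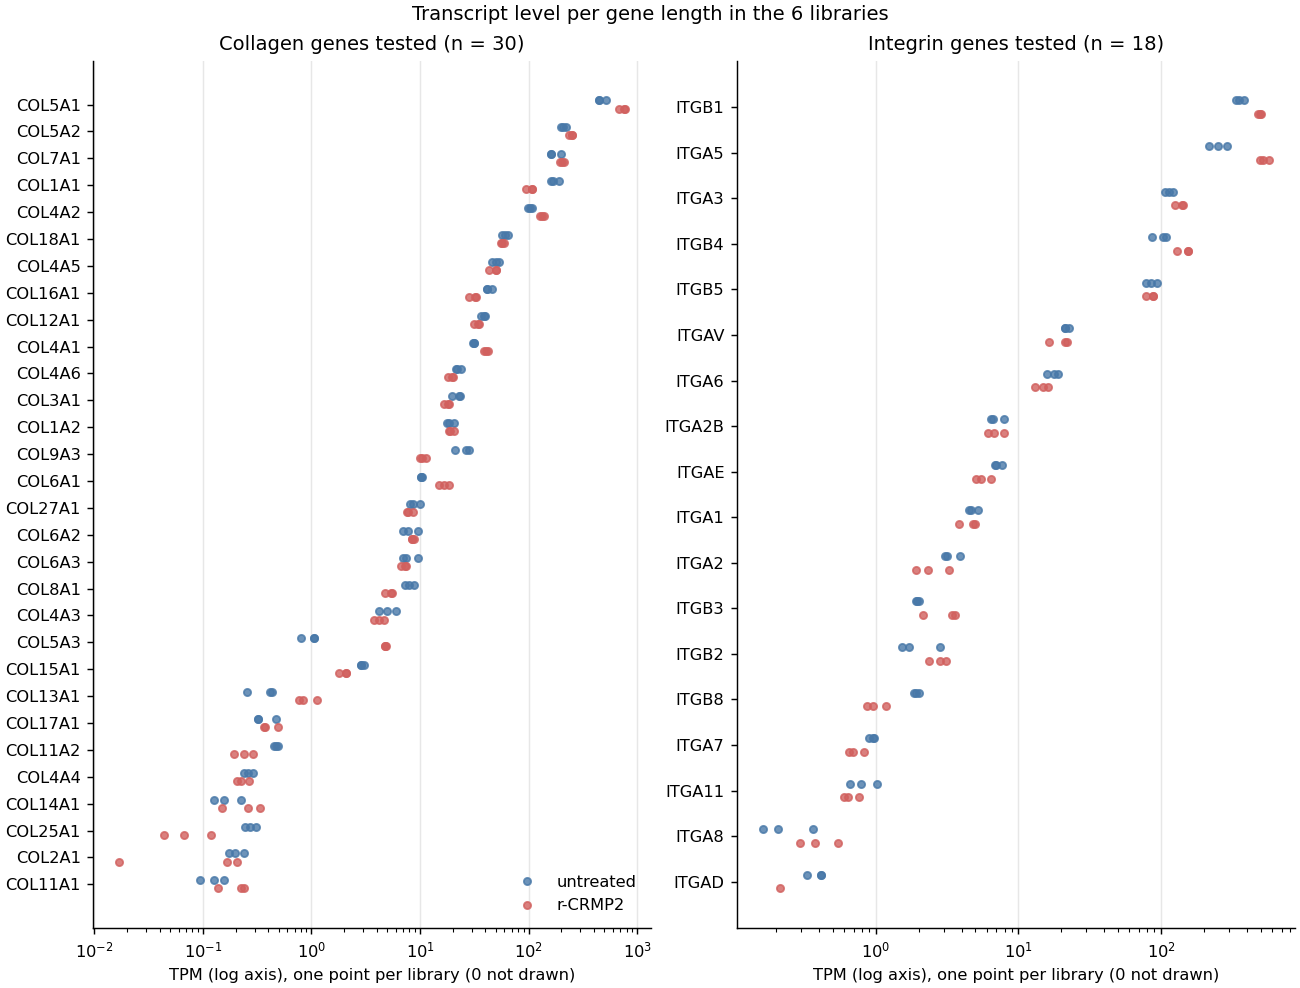
TPM of each tested collagen gene (left) and integrin gene (right) in the 6 libraries, on a log axis, with 1 point per library and genes ordered by mean TPM. COL5A1 lies at the top of the collagen genes and ITGB1 and ITGA5 at the top of the integrin genes, and values of 0 (ITGAD in 2 r-CRMP2 libraries) are not drawn.

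With TMM scaling, 22 members were higher and 5 lower with r-CRMP2, whereas with library size alone 13 were higher and 15 lower. The test was the quasi-likelihood test of edgeR, with p-values adjusted over all 16222 genes by Benjamini-Hochberg. At an adjusted p threshold of 0.05 alone, 12 of 30 collagen genes were higher and 3 lower, and 15 did not pass. Of the 18 integrin genes, 10 were higher, 2 lower and 6 did not pass. These are 40% and 55.6% higher, against 28.2% of all genes tested, and 10% and 11.1% lower, against 30.1% of all genes. With a log2 fold change of at least 1 as well, COL5A3, COL6A1, COL13A1, ITGA5 and ITGA8 were higher, against 5.12% of all genes, and COL25A1 and ITGAD were lower, against 8.86%. All 3 r-CRMP2 libraries lay above all 3 untreated libraries for 15 collagen and 8 integrin genes (30.9% of all genes), and all lay below for 7 and 2 (33.3% of all genes).

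The median log2 fold change was 0.21 over the collagen genes tested and 0.28 over the integrin genes, which is 0.24 and 0.30 above the median of all genes. Scaled by library size, they were -0.10 and -0.03, again 0.23 and 0.30 above that of all genes. The split of calls followed the scaling. With library size alone, 8 collagen genes were higher and 10 lower, and 5 integrin genes were higher and 5 lower, while all genes split into 2171 higher and 8449 lower. Without the third r-CRMP2 library, 14 of 30 collagen genes tested were higher and 3 lower. Of the integrin genes, 21 were then tested, against 18 with all libraries, and 9 were higher and 1 lower. The share of all genes called without this library is not given here. COL11A1 and COL14A1 were the additional collagen calls, and ITGAV and ITGAD were the integrin calls that were lost.

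**Figure D2:**
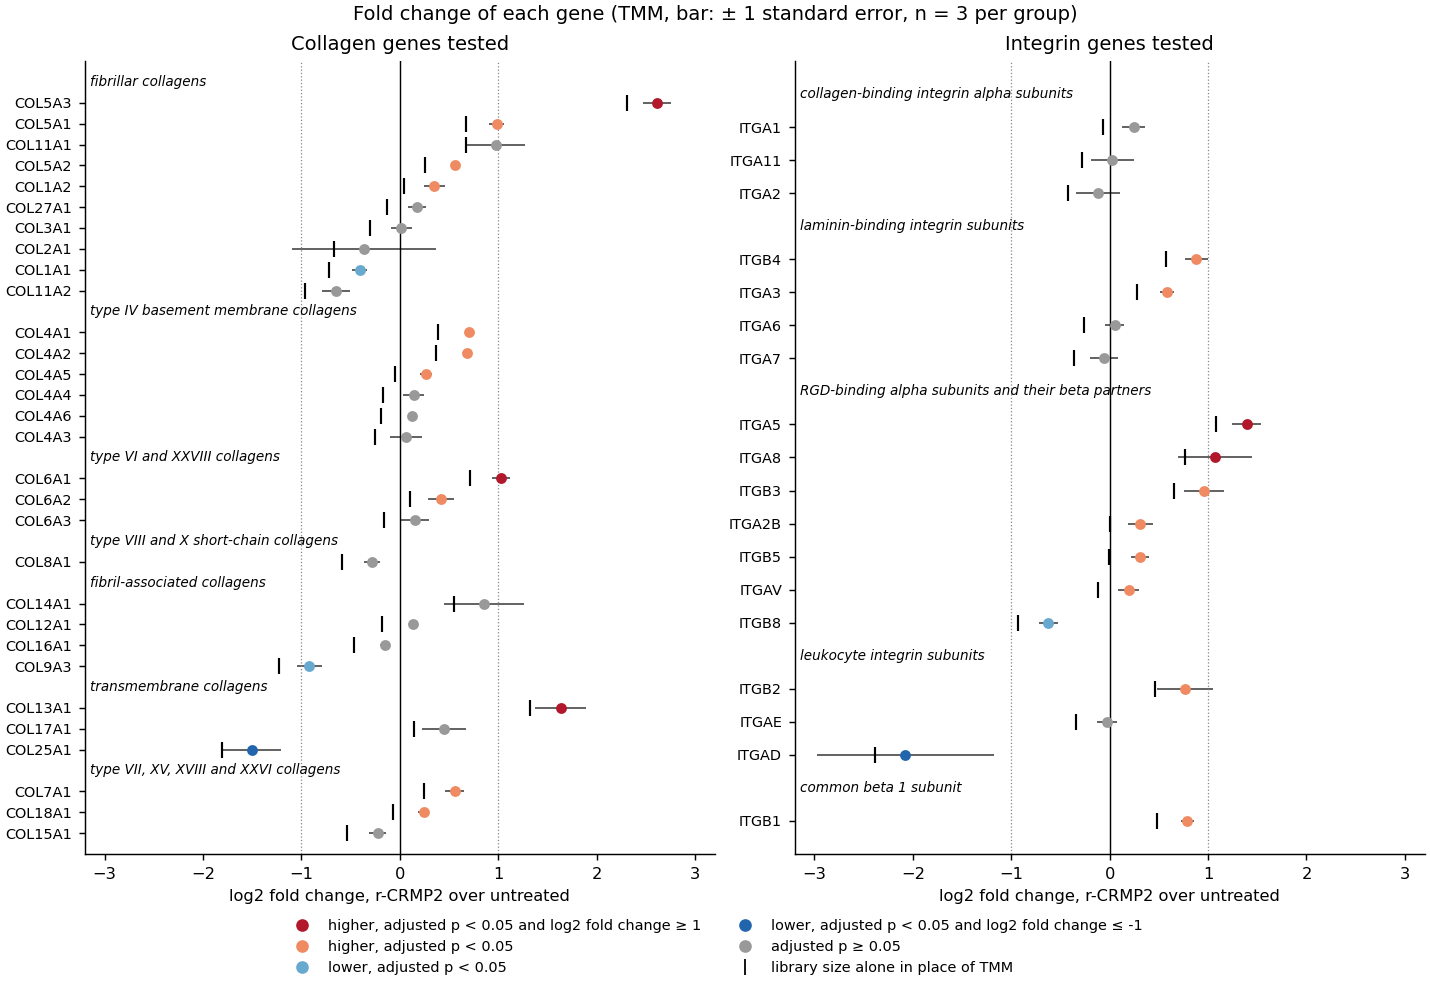
Log2 fold change of each tested member, r-CRMP2 over untreated, grouped by class, with TMM scaling (points, bars ± 1 standard error, n = 3 per group) and with library size alone (vertical ticks). Every tick lies to the left of its point, and COL5A3 (2.62), COL13A1 (1.63) and ITGA5 (1.39) lie farthest to the right.

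Collagen genes took 0.480%, 0.554% and 0.494% of all counts in untreated and 0.638%, 0.606% and 0.641% in r-CRMP2 libraries. The mean share was 0.509 ± 0.0391% (SD, n = 3) and 0.628 ± 0.0196% (SD, n = 3), a ratio of 1.23, and the groups did not overlap. Without COL5A1 the share was 0.327 ± 0.0237% (SD, n = 3) and 0.338 ± 0.00545% (SD, n = 3), a ratio of 1.03, so most of the added collagen counts were from this gene. Integrin genes took 0.225%, 0.204% and 0.188% of counts in untreated libraries and 0.304%, 0.292% and 0.315% in r-CRMP2 libraries, a ratio of 1.48. Without ITGA5 and ITGB1 that ratio was 1.19. In bulk RNA, fewer cells of a kind and less RNA per cell cannot be told apart.

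Among the fibrillar collagens, the type V chains rose, COL1A1 fell and COL3A1 did not pass the test after TMM. Of the 10 tested of 11, 4 were higher and 1 lower with TMM (median log2 fold change 0.26), and scaling by library size alone gave 3 up and 3 down (median -0.05). Over all genes tested, 28.2% were higher and 30.1% lower with TMM. With library size alone, 2171 of 16222 genes were higher and 8449 lower. COL5A1 encodes the main chain of type V collagen, which helps start collagen fibrils and limits their width. It was counted at chr9:137533651-137736689 (hg19, plus strand). It had 1580, 1789 and 1548 CPM without treatment and 3214, 3121 and 3381 CPM after r-CRMP2. The groups were far apart, and COL5A1 alone made up 31.4 ± 0.594% (SD, n = 3) of the summed collagen TPM in untreated and 42.0 ± 0.941% (SD, n = 3) in r-CRMP2 cells. The log2 fold change was 0.98 (standard error 0.07, edgeR adjusted p = 7.35e-10; a ± beside a log2 fold change is this error), just under the threshold of 1, which COL5A1 passed with DESeq2 (1.003), and it was 0.67 with library size alone.

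COL5A3, a further type V chain, had the largest rise among the members tested. It lies on chromosome 19 (10070237 to 10121147 in hg19, minus strand). COL5A3 went from 2.70, 1.997 and 2.67 CPM to 14.7, 15.9 and 14.9 CPM, a log2 fold change of 2.62 ± 0.14 (edgeR adjusted p = 1.85e-11). It stayed a minor transcript, at 4.77 ± 0.0459 TPM (SD, n = 3) with r-CRMP2. COL5A2, the partner chain of COL5A1, had 573, 617 and 594 CPM untreated and 859, 889.9 and 890.0 CPM with r-CRMP2 (log2 fold change 0.56 ± 0.04, edgeR adjusted p = 1.93e-07). Every r-CRMP2 library was thus above every untreated library for all 3 type V chains.

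The type I chains moved apart. COL1A1, the α1 chain, which type I collagen uses in excess over α2, fell from 394, 458 and 403 CPM to 318, 302 and 327 CPM (log2 fold change -0.41 ± 0.08, edgeR adjusted p = 3.81e-05). COL1A2, the α2 chain, was at 41.6, 45.4 and 39.4 CPM untreated and 50.6, 60.2 and 50.6 CPM with r-CRMP2 (log2 fold change 0.35, adjusted p = 0.00105, edgeR). This rise of COL1A2 was 0.04 with library size alone and no longer passed (adjusted p = 0.69). COL3A1, the chain of type III collagen, was at 49.6 ± 4.15 CPM (SD, n = 3) and 50.1 ± 4.62 CPM (SD, n = 3), with overlapping libraries and a log2 fold change of 0.01 ± 0.11 (edgeR adjusted p = 0.90). COL27A1, COL11A1, COL11A2 and COL2A1 did not pass after TMM, and the last 3 were under 2 CPM in every library. With library size alone COL3A1 was lower (log2 fold change -0.30, edgeR adjusted p = 0.00408), as was COL11A2 (-0.96, edgeR adjusted p = 0.0121). The median over all genes tested was -0.34 with this scaling, so COL3A1 lay above it.

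The promoters of COL5A1 and COL5A3 are shown because these 2 chains rose most among the fibrillar collagens. Each run is the 250 bases before the RefSeq start (GRCh38.p14) on the strand of the gene, 5′ to 3′. COL5A1 is on the plus strand at chr9:134641553-134641802 and COL5A3 on the minus strand at chr19:10010505-10010754. Capitals mark matches to ACGTG or GCGTG on either strand, the letters at the core of the hypoxia response element, searched because the study followed HIF-1.
COL5A1: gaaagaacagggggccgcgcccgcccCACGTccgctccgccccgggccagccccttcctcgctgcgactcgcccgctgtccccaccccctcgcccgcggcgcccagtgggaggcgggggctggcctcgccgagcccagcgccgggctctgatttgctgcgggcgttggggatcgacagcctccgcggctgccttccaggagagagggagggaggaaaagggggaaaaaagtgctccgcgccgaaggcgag
COL5A3: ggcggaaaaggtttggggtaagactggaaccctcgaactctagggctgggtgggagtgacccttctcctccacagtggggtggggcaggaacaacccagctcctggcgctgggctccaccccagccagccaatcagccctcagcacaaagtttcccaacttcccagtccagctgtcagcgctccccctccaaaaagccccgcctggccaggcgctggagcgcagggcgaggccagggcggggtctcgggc
The COL5A1 stretch holds 1 such match and the COL5A3 stretch holds 0, which says only that these letters are not in this window. Of the 70 members, 49 had a promoter in the table, and 20 of these (40.8%) held ACGTG or GCGTG, against 43.1% of all 27305 promoters of this length. The letters were in 5 of 15 members that were higher, 2 of 2 that were lower and 6 of 16 tested members that did not pass. GGGCGG, the core of the GC box, was in 25 of 49 (51%) against 42.3% of all promoters. CCAAT was in 12 (24.5%) against 33%, and TATAAA in 6 (12.2%) against 11.1%. All motifs were searched on both strands, and no motif contains another. COL1A1, COL1A2, COL5A2 and COL6A1 were not matched.

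Basement membrane collagens rose as a pair at COL4A1 and COL4A2, whose products assemble into the most widespread type IV network. All 6 type IV genes were tested, and 3 were higher and 0 lower with edgeR after TMM, against 28.2% and 30.1% of all genes tested. Also 0 were lower at an unadjusted p under 0.05 and with DESeq2. Scaled by library size alone, the split was 2 and 1, the lower gene being COL4A6 (log2 fold change -0.19, edgeR adjusted p = 0.0201). That value lay above the median of -0.34 over all genes tested with this scaling. COL4A2 had 266, 284 and 273 CPM untreated and 439.7, 444 and 437 CPM with r-CRMP2 (log2 fold change 0.68 ± 0.03, edgeR adjusted p = 1.16e-08). COL4A1 had 97.0, 95.1 and 93.7 CPM untreated and 154, 156 and 154 CPM with r-CRMP2 (log2 fold change 0.70 ± 0.02, edgeR adjusted p = 8.05e-09). The ratio of COL4A1 to COL4A2 TPM was 0.316, 0.291 and 0.298 in untreated and 0.304, 0.306 and 0.305 in r-CRMP2 libraries, so that the ranges overlapped.

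COL4A1 and COL4A2 lie head to head on chromosome 13, with 109 bases between them in the deposited positions (hg19) and 126 bases between their RefSeq starts in GRCh38.p14. This shared stretch, chr13:110307158-110307283, is shown because both genes start from it and moved by nearly equal amounts. It is written 5′ to 3′ on the plus strand, towards COL4A2, with CCAAT and GGGCGG in capitals, and 80.2% of its bases are G or C.
COL4A1-COL4A2: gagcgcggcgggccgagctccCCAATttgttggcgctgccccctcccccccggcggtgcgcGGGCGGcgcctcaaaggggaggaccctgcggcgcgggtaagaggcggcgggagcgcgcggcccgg
The COL4A3 and COL4A4 genes, also head to head, had log2 fold changes of 0.06 and 0.14 and did not pass. The X-linked pair COL4A5 and COL4A6, head to head as well, had 0.27 and 0.12. COL4A5 rose from 133 ± 7.71 to 159.7 ± 7.63 CPM (SD, n = 3 each) with adjusted p = 0.00162 (edgeR), but its log2 fold change was -0.04 with library size alone.

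COL6A1, the α1 chain of type VI collagen, was higher past both thresholds with TMM, by a narrow margin. It went from 17.9, 17.8 and 17.6 CPM to 38.5, 38.4 and 31.9 CPM, a log2 fold change of 1.03 ± 0.09 (edgeR adjusted p = 9.00e-09). The change was under 1 without r-CRMP2 replicate 1 or 2 (0.992 in both cases) and with library size alone (0.716), with adjusted p under the threshold in each. Its partner COL6A2 rose less, from 14.4 ± 2.20 to 19.2 ± 0.891 CPM (SD, n = 3), a log2 fold change of 0.42 (adjusted p = 0.00234, edgeR), and did not pass with library size alone (0.11, adjusted p = 0.40). COL6A3, the large α3 chain, had a log2 fold change of 0.15 and overlapping libraries (adjusted p = 0.18, edgeR). COL6A5, COL6A6 and COL28A1 were too low to be tested, as were COL8A2, COL9A1, COL9A2, COL10A1, COL19A1, COL20A1, COL21A1, COL22A1, COL23A1, COL24A1 and COL26A1.

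Of the other collagens, COL7A1, which forms the anchoring fibrils under epithelia, rose from 614, 742 and 599 CPM to 950.0, 966 and 958 CPM (log2 fold change 0.56 ± 0.10, edgeR adjusted p = 3.03e-06). COL18A1, a basement membrane collagen whose C-terminal fragment is endostatin, rose from 170.5 ± 8.46 to 201.5 ± 9.18 CPM (SD, n = 3 each). Its log2 fold change was 0.24 (adjusted p = 0.00291, edgeR) and turned to -0.07 with library size alone. COL9A3, a chain of the fibril-associated type IX collagen, fell from 21.9, 28.2 and 26.8 CPM to 12.4, 14.1 and 14.2 CPM (log2 fold change -0.92 ± 0.13, edgeR adjusted p = 3.71e-07). It shares bases with TCFL5 on the opposite strand, which had a mean of 2237 counts against 484 for COL9A3 and a log2 fold change of -0.06, and no source says whether counting used strand. COL16A1, a fibril-associated chain, had 96.8, 104.0 and 95.1 CPM untreated and 89.9, 84.6 and 91.8 CPM with r-CRMP2, so the groups did not overlap, with a log2 fold change of -0.15 (adjusted p = 0.0515, edgeR). COL8A1, a short-chain collagen, was at 9.31, 11.1 and 9.91 CPM untreated and 8.47, 7.94 and 8.49 CPM with r-CRMP2 (log2 fold change -0.28, adjusted p = 0.0511, edgeR). COL12A1 (0.13), COL14A1 (0.86) and COL15A1 (-0.23), named here with their log2 fold changes, did not pass after TMM. With library size alone, the median log2 fold change over all genes tested was -0.34. COL12A1 (-0.18, edgeR adjusted p = 0.0123), which lay above that median, and COL15A1 (-0.54, edgeR adjusted p = 0.00286) were lower with this scaling. So were COL16A1 (-0.46, edgeR adjusted p = 1.29e-05) and COL8A1 (-0.59, edgeR adjusted p = 0.000485), while COL14A1 did not pass. COL16A1 and COL8A1 were also lower where at least 10 counts were required in every library (edgeR adjusted p = 0.0303 and 0.0433).

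Among the transmembrane collagens, 1 of 3 tested was higher and 1 lower, both at low counts, against 28.2% and 30.1% of all genes tested. COL13A1 had 16, 13 and 9 counts in the untreated and 28, 26 and 42 counts in the r-CRMP2 libraries, a log2 fold change of 1.63 ± 0.26 (edgeR adjusted p = 0.000556). COL25A1 had 18, 17 and 22 counts and then 8, 3 and 5 counts, a log2 fold change of -1.50 ± 0.29 (edgeR adjusted p = 0.00837). Neither pair of groups overlapped. COL17A1 had a log2 fold change of 0.45 and did not pass. COL25A1 was not tested where at least 10 counts were required in every library, nor was COL13A1.

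**Figure D3:**
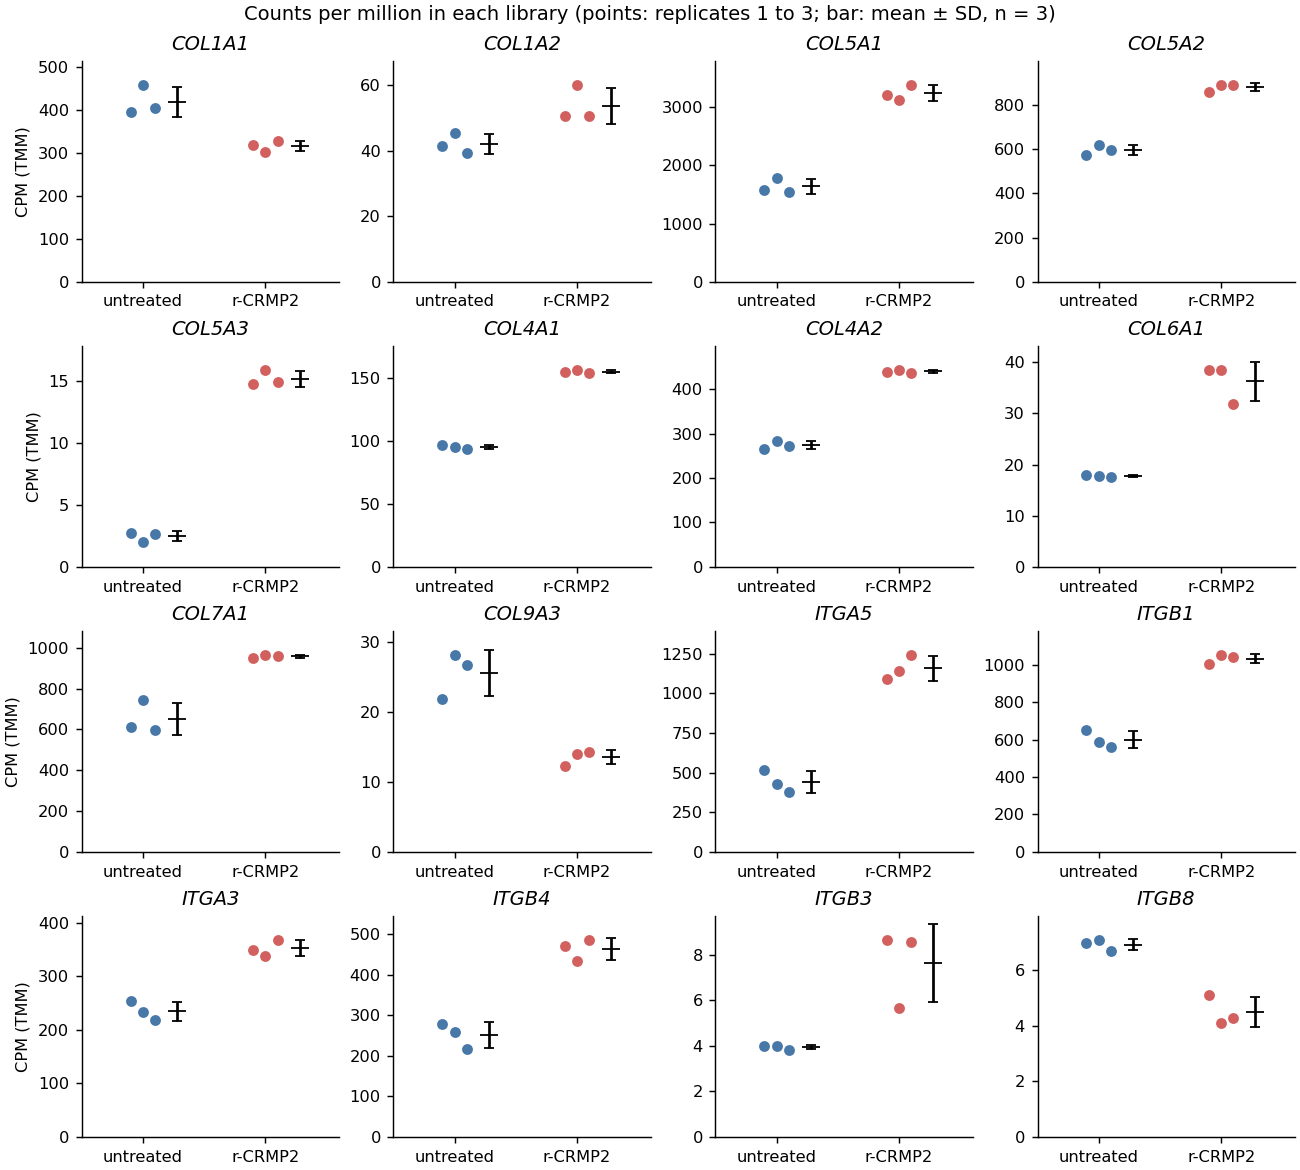
CPM (TMM-scaled) of 16 collagen and integrin genes in each library, with points for replicates 1 to 3 and black bars for mean ± SD (n = 3 per group), each axis starting at 0. COL1A1, COL9A3 and ITGB8 are lower in all 3 r-CRMP2 libraries and the other 13 genes are higher.

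The RGD-binding integrins, which recognise fibronectin and vitronectin, had 7 of 8 members tested. With TMM 6 were higher and 1 lower, against 28.2% and 30.1% of all genes tested. The split was 2 and 1 when scaled by library size alone, against 2171 and 8449 of all 16222 genes. ITGA5, the α subunit of the fibronectin receptor, is at chr12:54789045-54813050 (hg19, minus strand). ITGA5 rose from 517, 430.2 and 376 CPM to 1093, 1138 and 1243 CPM, a log2 fold change of 1.39 ± 0.14 (edgeR adjusted p = 2.18e-10). Its only partner is the common β1 subunit ITGB1 (chr10:33189246-33247293 in hg19, minus strand). ITGB1 rose from 650.0, 585 and 561 CPM to 1004, 1053 and 1041 CPM, a log2 fold change of 0.79 ± 0.07 (edgeR adjusted p = 8.06e-09). Both genes were apart in every library of the groups, and ITGA5 rose more. ITGA5 was the only integrin gene that rose past a log2 fold change of 1 with library size alone (1.08).

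The promoters of ITGA5 and ITGB1 are given as those of the most abundant integrin pair. Each is the 250 bases before the RefSeq start on the minus strand in GRCh38.p14, at chr12:54419267-54419516 for ITGA5 and chr10:32958231-32958480 for ITGB1. Capitals again mark ACGTG or GCGTG on either strand, with 1 match in ITGA5 and 0 in ITGB1.
ITGA5: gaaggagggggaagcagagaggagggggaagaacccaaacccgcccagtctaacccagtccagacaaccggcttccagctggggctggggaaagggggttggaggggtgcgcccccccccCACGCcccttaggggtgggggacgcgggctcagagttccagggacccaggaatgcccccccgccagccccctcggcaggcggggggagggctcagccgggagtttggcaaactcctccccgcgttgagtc
ITGB1: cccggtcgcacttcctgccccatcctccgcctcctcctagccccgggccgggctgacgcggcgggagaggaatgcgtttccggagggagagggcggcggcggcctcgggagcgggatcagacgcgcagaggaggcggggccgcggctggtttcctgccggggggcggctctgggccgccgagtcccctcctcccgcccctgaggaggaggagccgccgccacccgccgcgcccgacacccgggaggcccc
Both stretches hold GGGCGG and neither holds CCAAT or TATAAA.

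ITGB3, the β subunit of the vitronectin receptor and of the platelet fibrinogen receptor, had 3.99, 3.99 and 3.84 CPM untreated and 8.66, 5.66 and 8.58 CPM with r-CRMP2 (log2 fold change 0.96 ± 0.20, edgeR adjusted p = 6.51e-05). The second r-CRMP2 library was lower than the others but above all untreated libraries. ITGB5, another partner of the αV subunit, rose from 154 ± 15.9 to 190.5 ± 4.73 CPM (SD, n = 3 each) (log2 fold change 0.31, adjusted p = 0.000986, edgeR). ITGAV, the αV subunit itself, passed with 0.19 (adjusted p = 0.0406, edgeR) although its libraries overlapped. ITGA2B, the platelet α subunit, passed with 0.31 (adjusted p = 0.0347, edgeR), also with overlap. With library size alone these 3 changes were -0.002, -0.12 and -0.001. Leaving out 1 library ended the call of ITGAV in 4 of 6 cases (adjusted p up to 0.22 without the third r-CRMP2 library) and that of ITGA2B in 4 of 6 (up to 0.12 without the first r-CRMP2 library). ITGA8, a further RGD-binding α subunit, had 13, 25 and 16 counts and then 40, 28 and 24 counts, a log2 fold change of 1.07 ± 0.38 (edgeR adjusted p = 0.0162). This call was lost without untreated library 1 or 3 or r-CRMP2 library 1 (adjusted p 0.0775, 0.0613 and 0.0902) and with library size alone (0.0777). ITGB8, a β subunit that binds latent TGF-β with αV, fell from 6.98, 7.09 and 6.69 CPM to 5.10, 4.09 and 4.27 CPM (log2 fold change -0.62 ± 0.10, edgeR adjusted p = 0.00112).

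Of the 4 laminin-binding subunits, 2 were higher, and 0 lower with edgeR after TMM, with DESeq2 and at an unadjusted p under 0.05. Over all genes tested, 28.2% were higher and 30.1% lower after TMM. For these subunits the split was 2 and 1 with library size alone, the lower gene being ITGA6 (log2 fold change -0.26, edgeR adjusted p = 0.0118). That value lay above the median of -0.34 over all genes tested with this scaling. ITGA3, a laminin receptor α subunit that pairs with β1, rose from 254, 233 and 218 CPM to 350.1, 339 and 368 CPM (log2 fold change 0.59 ± 0.07, edgeR adjusted p = 4.22e-07). ITGB4, the hemidesmosome β subunit, rose from 279, 260.1 and 217 CPM to 471, 435 and 487 CPM (log2 fold change 0.88 ± 0.12, edgeR adjusted p = 1.79e-08). ITGA6, the only α partner of ITGB4, was at 44.1 ± 4.53 CPM (SD, n = 3) and 45.6 ± 2.48 CPM (SD, n = 3), with overlapping libraries (log2 fold change 0.05, adjusted p = 0.62, edgeR). ITGA7 had a log2 fold change of -0.06 and did not pass.

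Of the 3 collagen-binding α subunits tested (ITGA1, ITGA2 and ITGA11), 0 passed with edgeR after TMM or with DESeq2, and 0 had an unadjusted p under 0.05. ITGA2 was lower when scaled by library size alone (log2 fold change -0.42, edgeR adjusted p = 0.0265). ITGA1 was at 9.43 ± 0.908 CPM untreated and 11.2 ± 1.08 CPM with r-CRMP2 (SD, n = 3). ITGA2 was at 10.99 ± 1.70 CPM untreated and 10.1 ± 2.36 CPM with r-CRMP2 (SD, n = 3). The libraries of both genes overlapped between groups. The log2 fold change of ITGA1 was 0.24, and -0.07 with library size alone. ITGA1 contains PELO on the same strand, which had a mean of 623 counts against 245 for ITGA1 and a log2 fold change of 0.92, so reads of the 2 genes could be shared. ITGA11 stayed under 3 CPM, with a log2 fold change of 0.03 (adjusted p = 0.93, edgeR). ITGA10 had 10, 14 and 17 counts untreated and 9, 9 and 5 counts with r-CRMP2 and was not tested.

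Leukocyte integrins were low, as were leukocyte markers: PTPRC, CD3E, MS4A1 and CD14 were among 8 of 10 that stayed under 1 CPM in every library. ITGB2, the β subunit shared by most leukocyte integrins, was at 3.78, 2.24 and 2.01 CPM untreated and 4.96, 4.09 and 4.62 CPM with r-CRMP2 (log2 fold change 0.76 ± 0.28, edgeR adjusted p = 0.00502). It overlaps ITGB2-AS1 on the opposite strand, whose log2 fold change was 0.86, and with library size alone the ITGB2 change of 0.46 did not pass (adjusted p = 0.075). CD68, a lysosomal protein used as a macrophage marker, rose from 23.1 ± 2.33 to 74.3 ± 3.15 CPM (SD, n = 3 each), and its part in these values was not tested. ITGAE, the α subunit that binds E-cadherin, had the most TPM of this class and did not pass (log2 fold change -0.03, adjusted p = 0.83, edgeR). It overlaps GSG2 on the opposite strand, which had a mean of 536 counts against 271 for ITGAE and a log2 fold change of -0.29. Whether counting used strand is not given. With library size alone ITGAE was lower (log2 fold change -0.34, edgeR adjusted p = 0.0189), close to the median of -0.34 over all genes tested. ITGAD had 15, 16 and 18 counts untreated and 0, 9 and 0 counts with r-CRMP2 (log2 fold change -2.08 ± 0.90, edgeR adjusted p = 0.0188). It overlaps a same-strand transcript that had a mean of 11.3 counts, against 9.67 for ITGAD, and that fell by 2.53 on the log2 scale. The ITGAD call was lost with DESeq2 (adjusted p = 0.33) and without r-CRMP2 library 1 or 3 (adjusted p = 0.0831 and 0.0954, edgeR). ITGAL, ITGAM, ITGAX and ITGB7 had at most 14 counts in any library, as did ITGA4, ITGA9 and ITGB6.

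Ratios between partner chains were taken within each library, from TPM, and do not depend on the scaling between libraries. The 11 pairs were chosen with their values known. An exact two-sided permutation test of 3 against 3 libraries cannot go below p = 0.1, which 9 of the 11 pairs reached (0.122 after Benjamini-Hochberg adjustment over the 11), so none can pass 0.05. COL1A1 exceeded COL1A2 8.66-, 9.21- and 9.36-fold in untreated and 5.74-, 4.59- and 5.91-fold in r-CRMP2 libraries. The COL5A1 to COL5A2 ratio was 2.24 ± 0.119 (SD, n = 3) and 3.00 ± 0.126 (SD, n = 3), and the COL6A1 to COL6A2 ratio was 1.29 ± 0.184 (SD, n = 3) and 1.95 ± 0.258 (SD, n = 3), each without overlap. ITGA5 stood at 0.765, 0.707 and 0.644 of ITGB1 in untreated libraries and at 1.05, 1.04 and 1.15 in r-CRMP2 libraries, so it passed ITGB1 in each of the latter. ITGA3 to ITGB1 went the other way, from 0.319 ± 0.00405 (SD, n = 3) to 0.277 ± 0.0139 (SD, n = 3). ITGA6 to ITGB4 went from 0.180 ± 0.0271 (SD, n = 3) to 0.1001 ± 0.0040 (SD, n = 3). The COL4A1 to COL4A2 and ITGAV to ITGB5 ratios overlapped between the groups (exact permutation p = 0.7 and 0.4).

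**Figure D4:**
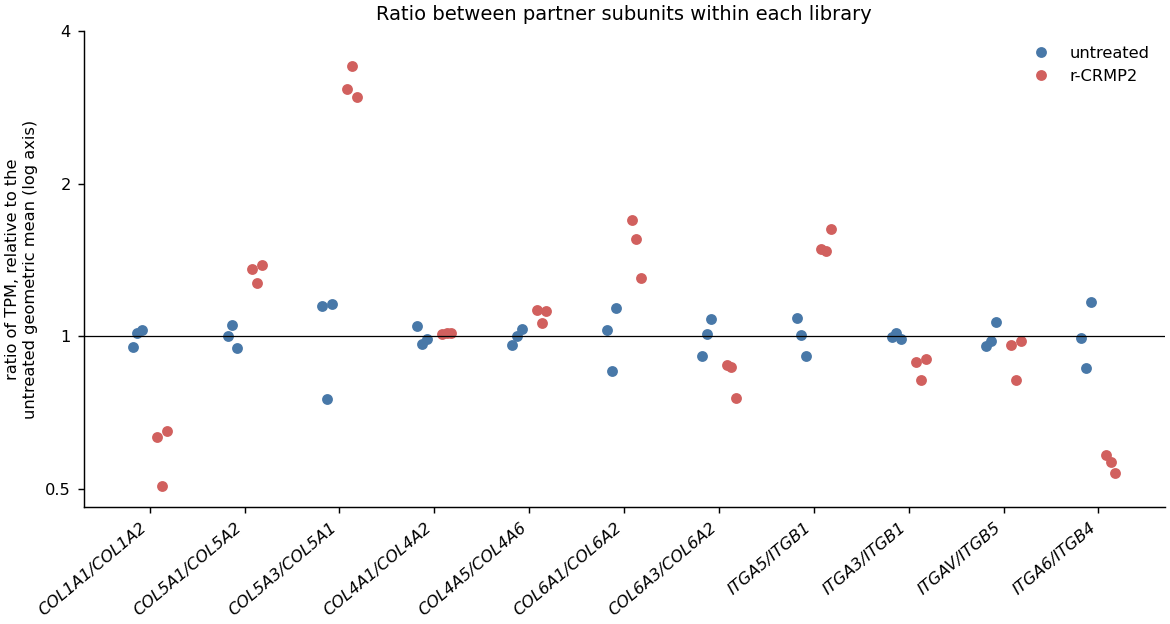
Ratio of TPM between partner subunits in each library, divided by the geometric mean of the untreated ratios, on a log axis, with 3 untreated and 3 r-CRMP2 points per pair. COL1A1/COL1A2 and ITGA6/ITGB4 are lower in the r-CRMP2 libraries, COL5A3/COL5A1 (3.15-fold) and ITGA5/ITGB1 (1.53-fold) are higher, and COL4A1/COL4A2 lies at 1 in both groups.

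The ligands and partners of these genes were counted over whole lists. The genes named from each list are those with its lowest adjusted p in these data. Over all genes tested, 28.2% were higher and 30.1% lower after TMM. Of the other matrix ligands and glycoproteins, 14 of 25 tested were higher and 3 lower. FN1, which encodes fibronectin, the ligand of ITGA5 with ITGB1, rose from 557, 523 and 496 CPM to 1672, 1573 and 1695 CPM (log2 fold change 1.65 ± 0.06, edgeR adjusted p = 4.19e-13). TNC, which encodes tenascin-C, had a log2 fold change of 1.19, and TGFBI, a matrix protein bound by integrins, had 0.96. Of the laminin genes, 8 of 11 tested were higher and 1 lower. LAMB3 (0.97) and LAMB1 (0.54) rose, and LAMA1, the α1 chain, fell from 9.60 ± 2.26 to 2.50 ± 0.750 CPM (SD, n = 3).

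Collagen folding and crosslinking enzymes had 18 of 24 tested genes higher and 2 lower, against 28.2% and 30.1% of all genes tested. Their median log2 fold change was 0.51, against -0.03 over all genes tested. LOX and LOXL2, which crosslink collagen, had log2 fold changes of 1.86 and 1.51, and P4HA1, a collagen prolyl hydroxylase subunit, had 1.21. Non-integrin matrix receptors had 5 of 8 tested genes higher and 0 lower with edgeR after TMM, with DESeq2 and at an unadjusted p under 0.05. SDC4 (1.62), a heparan sulfate proteoglycan of focal adhesions, DDR1 (0.71), a collagen receptor kinase, and CD44 (0.66), the hyaluronan receptor, led this list. Of the integrin adaptors and focal adhesion genes, 20 of 37 tested were higher and 8 lower. CRKL (1.40), an adaptor, and FHL2 (0.78), a LIM protein of focal adhesions, rose, while TNS4, a tensin, fell by 0.99 on the log2 scale. With library size alone the last list split into 8 higher and 14 lower, and the matrix ligands into 9 and 5. The laminins split into 5 and 1, the receptors into 3 and 3 and the folding and crosslinking genes into 14 and 4. With this scaling, all 16222 genes tested split into 2171 higher and 8449 lower.

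Collagens are also made by fibroblasts. The 12 fibroblast markers listed summed to between 408 and 420.5 CPM in untreated and between 415 and 459 CPM in r-CRMP2 libraries. Most of this sum was S100A4, at 265 ± 5.14 CPM untreated and 280 ± 14.8 CPM with r-CRMP2 (SD, n = 3 each). Of 9 tested, 4 were higher and 2 lower with TMM, and scaling by library size alone gave 0 and 3. The higher ones were THY1, PDGFRA, LUM and TAGLN. THY1 was at 54.8 to 59.1 CPM untreated and 61.04 to 66.9 CPM with r-CRMP2. The lower ones were POSTN and PDGFRB. POSTN was at 23.2 to 25.02 CPM untreated and 15.5 to 16.9 CPM with r-CRMP2. ACTA2, DCN and S100A4 were also tested and did not pass after TMM. Only FAP, DPT and PDPN stayed under 1 CPM in every library. The 7 endothelial markers summed to between 7.80 and 8.55 CPM untreated and between 2.53 and 3.48 CPM with r-CRMP2. VWF, KDR, CLDN5 and EMCN were under 1 CPM throughout. Of 4 endothelial markers tested, 0 were higher and 1 lower with TMM, and 0 and 2 with library size alone. The lower gene with TMM was CDH5, at 5.29 ± 0.448 CPM untreated and 1.35 ± 0.212 CPM with r-CRMP2 (SD, n = 3 each). The 8 epithelial markers summed to between 3180.0 and 3245 CPM untreated and between 3191 and 3464 CPM with r-CRMP2. The part of these cell types in the collagen and integrin values was not tested.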

How the data were processed

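Polyadenylated RNA of 6 A2780 libraries was sequenced. Submitters' processing notes name FastQC, HISAT2, DESeq2 and hg19, without versions or roles, and the counting tool, annotation and strand setting are not given in the sources used here. The authors deposited raw counts for 44591 genes, with TPM values computed from counts and gene lengths (recomputed TPM differed by at most 4.72e-06). Depth was 21888530 to 25711353 counts per library.

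Counts were compared with edgeR 4.0.16 (limma 3.58.1, R 4.3.3): TMM, filterByExpr, glmQLFit and glmQLFTest, with adjusted p (Benjamini-Hochberg) under 0.05 and, as in the study, an absolute log2 fold change of at least 1. Standard errors came from log2 CPM with a prior count of 2. TPM were compared only within libraries. Promoters were from RefSeq (GRCh38.p14), and coordinates of genes are as deposited. Alternatives were RLE size factors, DESeq2 1.42.0, scaling by library size, other count filters, a test against a fold change of 2, the replicate block and leaving out each library.

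Members and lists were chosen with earlier results of these data known. Named were members with an adjusted p under 0.05 and a mean of at least 1 CPM, those past both thresholds and the most abundant of each class. Up to 3 genes per companion list were named, those with the lowest adjusted p. Other members were named to complete a chain pair or class.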

Additional observations from a re-analysis of the deposited data

How the results depend on the processing

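The counts past both thresholds, which were 3 collagen genes higher and 1 lower and 2 integrin genes higher and 1 lower, were small and moved by single genes. A test against a fold change of 2 left 1, 0, 1 and 0, and the adjusted p alone gave 12, 3, 10 and 2. With library size alone, 2 collagen genes were lower and 1 integrin gene was higher. With at least 10 counts in every library, 0 collagen and 0 integrin genes were lower, since COL25A1 and ITGAD were not tested there, and DESeq2 gave 0 lower integrin genes. Leaving out 1 library gave 3 to 5 and 1 to 2 collagen genes and 1 to 3 and 0 to 2 integrin genes, and without r-CRMP2 replicate 3, an alternative at the adjusted p alone that was added after seeing the data, 1 integrin gene was lower.

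Of 400 pairs of a gene (31) and an alternative, 339 kept direction and side of the threshold, 45 lost the call (25 of them when tested against a 2-fold change), 8 gained it and 8 turned sign. With library size alone the log2 fold change was -0.0707 for COL18A1, -0.0443 for COL4A5, -0.0659 for ITGA1, -0.0009 for ITGA2B, -0.1157 for ITGAV and -0.0022 for ITGB5. The 8 gained calls were of COL16A1, COL8A1, ITGA1 and ITGAE. ITGAE, which did not pass after TMM, was lower with library size alone (-0.3401, edgeR adjusted p = 0.0189), close to the median of -0.337 over all genes tested. Its log2 fold change ranged from -0.0901 to 0.0558 when 1 library was left out. It was above 0 without untreated replicate 3 (0.0221) or r-CRMP2 replicate 3. Apart from the scaling, whose construction moves every gene, the cause was not tested.

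The replicate numbers of the labels did not pair the libraries: across genes, deviations from the group mean correlated at -0.02, 0.0038 and -0.03 between libraries of equal number. With the replicate block, 3 collagen genes were higher and 1 lower and 2 integrin genes were higher and 1 lower, and 0 of the 31 single genes changed call. Members under about 1 CPM rest on few counts per library and could show only large changes.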

Other observations

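Some members lie close together in the deposited positions (hg19). COL3A1 and COL5A2 lie tail to tail on chromosome 2, 19168 bases apart, and had log2 fold changes of 0.01 and 0.56. ITGA3 and COL1A1 lie tail to tail on chromosome 17, 93607 bases apart, with 0.59 and -0.41. COL6A1 and COL6A2, on the same strand of chromosome 21 and 93069 bases apart, had 1.03 and 0.42.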
